A study of Mus musculus with 70 samples.

Results

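The 10 genes described here belong to the BCL2 family, whose proteins decide at the mitochondrial membrane whether a cell survives or dies. They were taken by name as a list (Bcl2, Bcl2l1, Mcl1, Bcl2a1b, Bcl2a1d, Bax, Bak1, Bcl2l11, Bbc3 and Pmaip1) out of 53465 gene IDs in the count table. All 10 were among the 13179 protein-coding genes that passed the filter on low counts. RNAseq was performed on regulatory T cells (Tregs) of 5 male mice of a B6.129(Cg) strain with the allele Foxp3tm4(YFP/icre)Ayr, aged 16.6 to 18.6 weeks, in which a YFP and Cre reporter is expressed from the Foxp3 gene. All groups carried this allele, no animal was treated, and the same 5 mice gave every group. Live CD4+ YFP+ cells were sorted as ST2+ CD44hi and ST2- CD44hi Tregs from blood, spleen, lungs, colon, back skin and visceral adipose tissue of the abdomen (VAT). ST2- CD44lo CD62L+ Tregs, a resting population also called central Tregs, were sorted from spleen and lungs only. This gives 14 groups of tissue and population. ST2, encoded by Il1rl1, is the receptor of the cytokine IL-33.

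Survival members of the family (Bcl2, Bcl2l1, which encodes BCL-XL, Mcl1, and the A1 genes Bcl2a1b and Bcl2a1d) hold the death effectors Bax and Bak1 in check. The BH3-only members Bcl2l11 (BIM), Bbc3 (PUMA) and Pmaip1 (NOXA) bind the survival proteins and so free the effectors, which then open the outer mitochondrial membrane. In Tregs, survival depends on cytokines such as IL-2 and on MCL1, and BIM is a known driver of Treg death.

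Of 70 libraries, 3 held fewer than 1000000 counts and were left out, 1 of blood ST2+ and 2 of colon ST2+ Tregs, so n was 4 and 3 in these groups and 5 in every other. The 67 kept libraries held 1304560 to 2759926 counts, and 1 count was worth 0.354 to 0.888 CPM (counts per 1000000 counts of the library). Most libraries were made from 220 sorted cells, while those of blood ST2+ Tregs came from 55 to 220 cells and those of VAT ST2- CD44hi Tregs from 93 to 220. The Treg markers Cd4, Cd3e and Foxp3 had counts in all 67 libraries, and Foxp3 was highest in skin, at 328 to 428 CPM. In the blood ST2- CD44hi library of mouse 2 the transcript of Cd44, the marker used in the sort, was at 43.1 CPM, inside the 39.7 to 81.4 CPM of the spleen CD44lo libraries, and the other blood ST2- CD44hi libraries held 146 to 210 CPM. Results that use blood ST2- CD44hi Tregs are therefore also given without mouse 2.

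The letters of 2 of these genes limit what a short read can tell. Bcl2a1b (chr9:89199209-89207827, plus strand, GRCm38) and Bcl2a1d (chr9:88723285-88731914, minus strand) are near-identical copies. Their coding sequences have 519 bases and differ at 6, which makes them 98.8% identical. Reads in these libraries were 58 bases long, and 222 of the 462 stretches of that length in the coding sequence (48.1%) were the same in both genes. The first 58 coding bases are shown because they hold 2 of the differences, in capitals, which tell these 2 copies apart. Whether this stretch also occurs in another gene was not examined.
Bcl2a1b, coding bases 1 to 58, chr9:89199360-89199417, plus strand: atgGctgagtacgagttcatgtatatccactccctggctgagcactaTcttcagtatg
Bcl2a1d, coding bases 1 to 58, chr9:88731662-88731719, minus strand: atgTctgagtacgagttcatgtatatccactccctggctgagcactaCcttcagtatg
Over whole exons, 75.79% of 58-base stretches of Bcl2a1b and 75.31% of those of Bcl2a1d also occur in another gene, chiefly each other, Bcl2a1a and Gm29094. Their separate values and their sum are therefore uncertain. For Bax this share was 7.965%, all of it shared with the overlapping Gm45808, and for Bcl2 0.022%. It was 0 for the other 6 members. This share does not cover overlap with a gene on the opposite strand, where 558 exon bases of Bcl2 overlap D630008O14Rik.

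Promoters are shown for 5 members, the 250 bases before a start site in RefSeq (GRCm38.p6), namely Bcl2, Bcl2l1 and Bcl2l11, whose levels spanned a wide range below, and the A1 pair, to show how alike the copies are. Motifs were searched on both strands in windows that also hold 50 bases after the start. These were a STAT motif (TTCNNNGAA), a FOXO motif (GTAAACA), an AP-1 motif (TGANTCA) and the NF-kappaB consensus, found in 8.3%, 3.65%, 7.81% and 4.51% of all 32851 promoter windows. Capitals mark a match. The Bcl2 window held none of the 4 motifs, 1 of 3 Bcl2l1 windows held an NF-kappaB match, 1 of 2 Bcl2l11 windows a FOXO match, and both A1 windows an AP-1 match.
Bcl2 promoter, chr1:106714291-106714540, minus strand: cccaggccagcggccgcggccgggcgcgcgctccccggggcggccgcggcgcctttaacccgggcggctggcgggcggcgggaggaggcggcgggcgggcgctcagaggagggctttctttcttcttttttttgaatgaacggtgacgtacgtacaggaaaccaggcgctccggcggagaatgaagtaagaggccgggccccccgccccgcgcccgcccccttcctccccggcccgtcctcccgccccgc
Bcl2l1 promoter, chr2:152830718-152830967, minus strand: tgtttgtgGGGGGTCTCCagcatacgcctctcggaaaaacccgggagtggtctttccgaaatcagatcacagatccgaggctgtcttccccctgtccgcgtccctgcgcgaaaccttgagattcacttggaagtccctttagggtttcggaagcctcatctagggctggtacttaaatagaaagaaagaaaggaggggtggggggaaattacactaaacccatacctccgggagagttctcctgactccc
Bcl2l11 promoter, chr2:128125788-128126037, plus strand: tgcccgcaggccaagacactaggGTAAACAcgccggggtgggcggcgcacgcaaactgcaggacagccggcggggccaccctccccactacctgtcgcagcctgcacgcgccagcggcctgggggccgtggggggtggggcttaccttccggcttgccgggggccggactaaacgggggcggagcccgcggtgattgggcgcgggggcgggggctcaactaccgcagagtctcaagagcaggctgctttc
Bcl2a1b promoter, chr9:89199023-89199272, plus strand: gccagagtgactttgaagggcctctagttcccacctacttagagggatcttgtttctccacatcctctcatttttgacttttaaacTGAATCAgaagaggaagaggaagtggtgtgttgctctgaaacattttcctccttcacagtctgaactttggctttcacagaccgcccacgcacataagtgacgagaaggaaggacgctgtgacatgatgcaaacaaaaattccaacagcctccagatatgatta
Bcl2a1d promoter, chr9:88731851-88732100, minus strand: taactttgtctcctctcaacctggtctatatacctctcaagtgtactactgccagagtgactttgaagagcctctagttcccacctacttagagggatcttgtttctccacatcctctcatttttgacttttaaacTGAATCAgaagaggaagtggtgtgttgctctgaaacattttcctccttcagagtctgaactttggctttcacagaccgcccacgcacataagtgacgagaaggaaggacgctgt
The 2 A1 promoters share an unbroken run of 84 bases. Of the members not shown, Bbc3 had an NF-kappaB match in 1 of 3 windows (2 matches) and a FOXO match in another, and the windows of Mcl1, Bax and Bak1 held none of the motifs. Windows were found for 9 of the 10 members, all but Pmaip1. A match here is a description of the letters and not a measured binding site.

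Per kilobase of exon, the scale on which genes can be compared, Mcl1 had the highest median level of the 10 over the 67 libraries, at 123 CPM per kb. Bax followed at 67.6, then Pmaip1 at 30.1, Bcl2a1d at 26.2, Bcl2a1b at 25.9, Bcl2 at 23.9 and Bcl2l1 at 19.8 CPM per kb. Bbc3 (7.64), Bcl2l11 (6.34) and Bak1 (0.735 CPM per kb) were the lowest. The places of the A1 genes in this order are uncertain, since reads they share with other genes may not have been counted. Levels of a gene across the 14 groups differed far more for some members than for others. The highest group mean was 62.5 times the lowest for Bcl2, 33.2 times for Pmaip1, 26.3 times for Bcl2l11, 17.4 times for Bcl2l1 and 16.0 times for Bcl2a1d. It was 5.48 times for Bak1, 4.90 for Bbc3, 4.52 for Bcl2a1b, 1.70 for Mcl1 and 1.25 for Bax.

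Bcl2 (chr1:106538178-106714274, minus strand), the founding survival gene of the family, was highest in central Tregs and in ST2- CD44hi Tregs of the blood, and lowest in skin. In central Tregs of the spleen it was at 693, 813, 711, 858 and 753 CPM in mice 1 to 5, and in those of the lungs at 486, 781, 594, 808 and 659.8 CPM. Blood ST2- CD44hi Tregs lay in the same range, at 606, 779.8, 802, 795 and 655 CPM. Skin Tregs held 22.7, 7.42, 10.5, 8.87 and 11.8 CPM in the ST2- CD44hi group and 25.4, 33.6, 11.5, 6.21 and 4.68 CPM in the ST2+ group. Every skin library was thus below every library of any other group, of which the lowest was colon ST2+ of mouse 3 at 57.0 CPM. Between these ends the groups followed each other with overlapping ranges, from spleen ST2- CD44hi (299 to 484 CPM) to lungs ST2- CD44hi (295 to 382), spleen ST2+ (213 to 417), VAT ST2- CD44hi (158 to 324) and lungs ST2+ (126 to 219 CPM). Blood ST2+ (115 to 183), colon ST2- CD44hi (109 to 313), VAT ST2+ (65.8 to 197) and colon ST2+ (57.0 to 165 CPM) came last before skin. In the order of the medians, neighbouring groups were free of overlap at 2 places only, between lungs central and spleen ST2- CD44hi Tregs and between colon and skin. In sorted populations such as these, a lower transcript level in each cell and fewer cells that express the gene cannot be told apart.

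Bcl2l1 (chr2:152780668-152831728, minus strand), which encodes BCL-XL, ran the other way. Skin ST2+ Tregs held 496, 431, 489.8, 415 and 430.4 CPM and skin ST2- CD44hi Tregs 424, 405, 394, 283 and 456 CPM. Central Tregs held 74.5, 29.1, 27.0, 20.8 and 19.7 CPM in spleen and 41.5, 37.2, 14.9, 15.4 and 21.2 CPM in lungs. All 10 skin libraries were above all other libraries, the nearest being colon ST2- CD44hi of mouse 1 at 279.7 CPM. The remaining groups overlapped from neighbour to neighbour, with medians of 228 CPM in VAT ST2+, 148 in VAT ST2- CD44hi, 146 and 109 in colon ST2+ and ST2- CD44hi, 92.0 in lungs ST2+, 90.6 in spleen ST2+ and 79.2 in spleen ST2- CD44hi Tregs. The medians of blood ST2+ (40.8) and lungs ST2- CD44hi Tregs (38.1 CPM) were above those of both central groups, with overlapping ranges. That of blood ST2- CD44hi Tregs (25.6 CPM) lay between the central groups of spleen (27.0) and lungs (21.2 CPM). Mouse 1 had 0 Bcl2l1 counts in its blood ST2- CD44hi library, which allows up to 1.36 CPM (3 counts, counting error only).

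**Figure D1:**
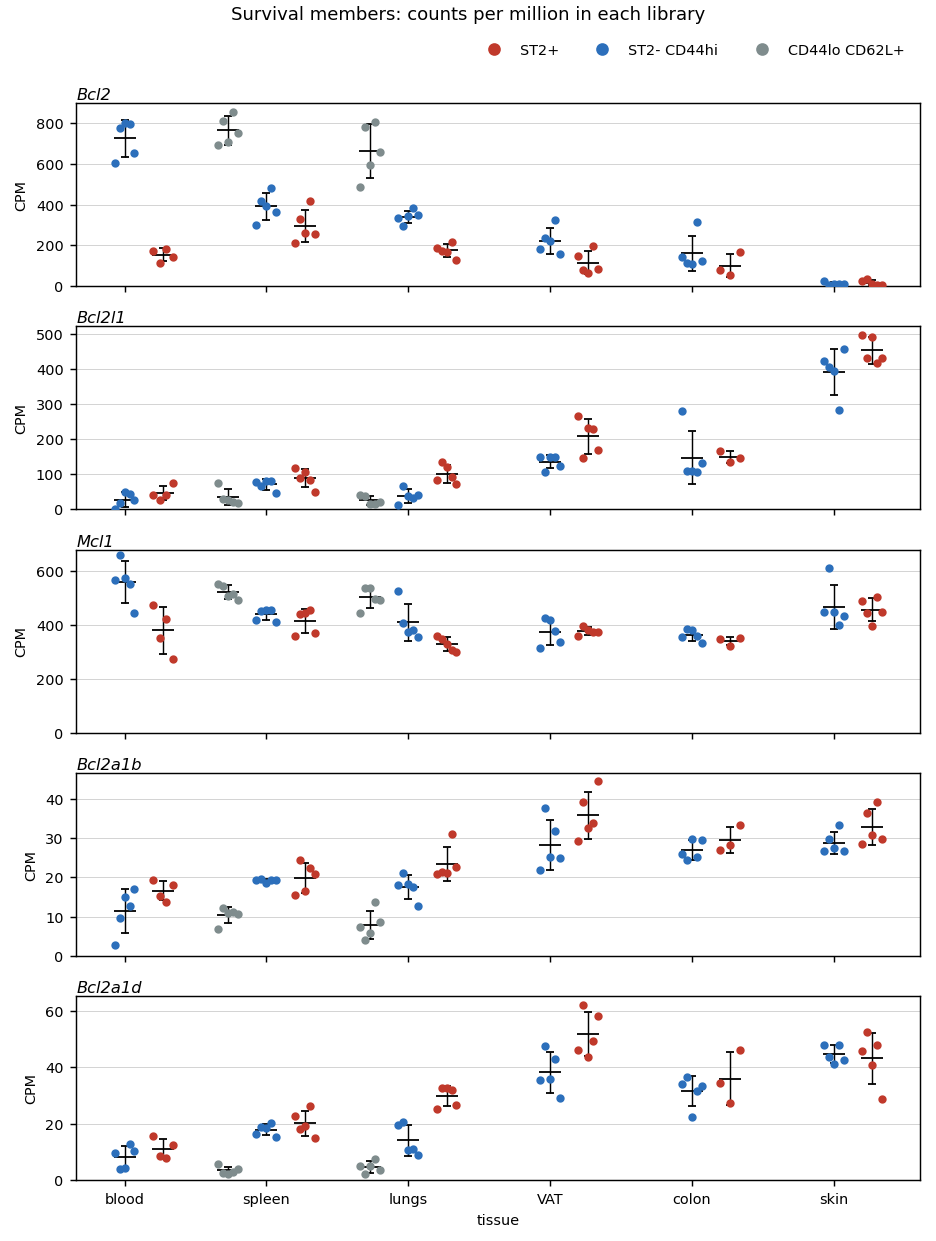
Levels of the 5 survival members in CPM (vertical axes from 0) in each of the 67 libraries, by tissue, with 1 point per library, bars at the mean ± SD and colours for ST2+, ST2- CD44hi and CD44lo CD62L+ Tregs. Bcl2 falls from 486 to 858 CPM in central Tregs to at most 33.6 CPM in skin, where Bcl2l1 is at 283 to 496 CPM, while Mcl1 stays between 274 and 659 CPM.

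Mcl1 (chr3:95658788-95663176, plus strand), a survival gene with a short-lived protein, was steady. Its group means lay between 329 ± 25.5 CPM in lungs ST2+ (SD, n = 5) and 558 ± 76.9 CPM in blood ST2- CD44hi Tregs (SD, n = 5), and every neighbouring pair in the order overlapped. The A1 genes were lowest in central Tregs. Bcl2a1d was at 5.50, 2.46, 1.96, 2.67 and 3.61 CPM in central Tregs of the spleen and at 46.1, 62.3, 43.9, 49.3 and 58.3 CPM in VAT ST2+ Tregs, the highest group. Bcl2a1b lay between 4.20 and 13.7 CPM in central Tregs of the lungs and between 29.2 and 44.4 CPM in VAT ST2+ Tregs. For both A1 genes these lowest and highest groups were free of overlap, while all neighbours in the order overlapped.

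When the survival members were added up per kilobase, Mcl1 was by its median the largest part in every group, with medians from 39.5% of the sum in VAT ST2+ to 67.6% in blood ST2+ Tregs. What filled the rest differed by group. Bcl2 made up 32.6% of the sum in central Tregs of the spleen, 29.9% in blood ST2- CD44hi, 18.9% in spleen ST2- CD44hi and 3.23% in VAT ST2+ Tregs (medians), and 0.407% and 0.382% in skin ST2+ and ST2- CD44hi Tregs. The median share of Bcl2l1 went from 1.97% in central Tregs of the lungs to 31.7% in skin ST2+ Tregs, and the A1 genes together reached 35.3% in VAT ST2+ Tregs. In that group the A1 part (33.3% to 44.0%) overlapped that of Mcl1 (39.0% to 43.0%). Of the stretches of read length in the exons of Bcl2a1b and Bcl2a1d, 75.79% and 75.31% also occur in another gene. How shared reads were counted is not given, so the A1 part may be too low, and every share depends on it. Whether Mcl1 would stay the largest part with such reads counted was not tested. The log2 difference of Bcl2 minus Bcl2l1, on the CPM scale without a length correction, had medians of 4.76 in spleen central, 4.63 in blood ST2- CD44hi and 2.54 in spleen ST2- CD44hi Tregs. It was close to 0 in colon ST2- CD44hi Tregs (-0.01, from -0.97 to 1.55) and fell to -5.11 and -5.29 in skin ST2- CD44hi and ST2+ Tregs. Over the 14 group means of log2 CPM, Pearson's r was -0.90 between Bcl2 and Bcl2l1, 0.97 between the A1 genes and 0.91 between Bcl2l1 and Bcl2a1b. These values describe 14 points that share mice and tissues, and for the A1 genes also reads.

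**Figure D2:**
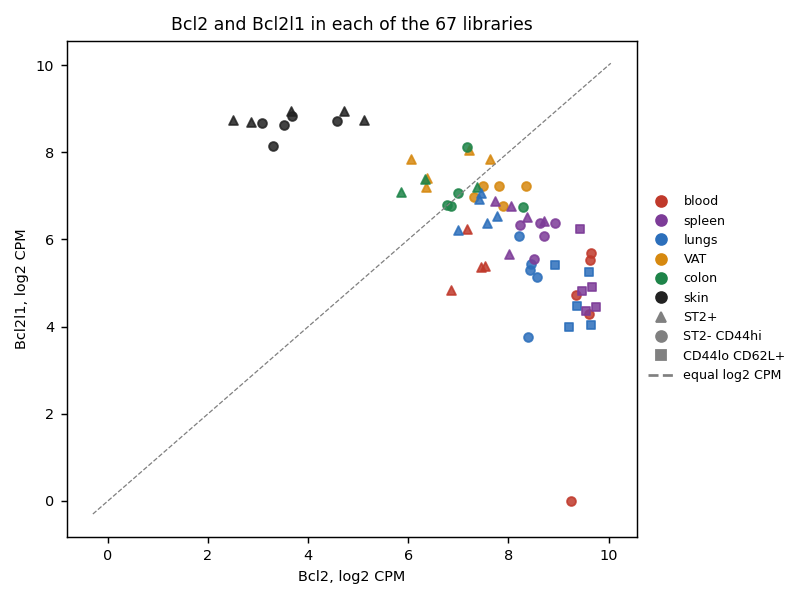
Bcl2 (horizontal axis) against Bcl2l1 (vertical axis), both in log2 CPM, with 1 point per library, colours for tissues, shapes for populations and a dashed line where the genes are equal. Skin libraries lie far above the line, with median log2 differences of -5.11 and -5.29, and central and blood ST2- CD44hi Tregs lie below it.

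The effectors moved little. Bax (chr7:45461697-45466898, minus strand), which forms pores in the mitochondrial membrane, had group means from 99.5 ± 8.90 CPM in spleen central Tregs (SD, n = 5) to 124 ± 18.8 CPM in blood ST2+ Tregs (SD, n = 4), and its ranges overlapped throughout. Bak1 (chr17:27019810-27029009, minus strand), the second effector, had a median of 3 counts per library and none in 11 of 67. Its group means of 0.630 to 3.46 CPM are near the worth of a single count, so differences of Bak1 were not detectable at this depth, and 437 of its bases overlap Ggnbp1 on the opposite strand.

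Bcl2l11 (chr2:128126038-128162547, plus strand), which encodes the BH3-only protein BIM, was highest in central Tregs of the lungs, at 236, 359, 351, 323 and 268 CPM. Central Tregs of the spleen held 61.6, 114, 81.1, 66.2 and 77.4 CPM, and VAT ST2+ Tregs, the lowest group, 0.823, 0, 5.13, 42.8 and 9.72 CPM. The lungs central libraries were above all others, and all further neighbours in the order overlapped. Pmaip1 (NOXA, on chromosome 18) was nearly absent from central Tregs of the spleen, at 4.40, 0.410, 10.2, 2.14 and 7.62 CPM. It was at 24.7 to 64.4 CPM in central Tregs of the lungs, at 107 to 208 CPM in colon ST2- CD44hi Tregs and at 95.4 to 201 CPM in skin ST2+ Tregs. Bbc3 (PUMA, chr7:16308393-16318205, plus strand), a target of p53, had its highest means in skin, 38.7 ± 16.1 CPM in ST2+ and 34.6 ± 8.96 CPM in ST2- CD44hi Tregs (SD, n = 5), against 7.89 to 24.3 CPM elsewhere. Its neighbouring groups overlapped throughout.

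**Figure D3:**
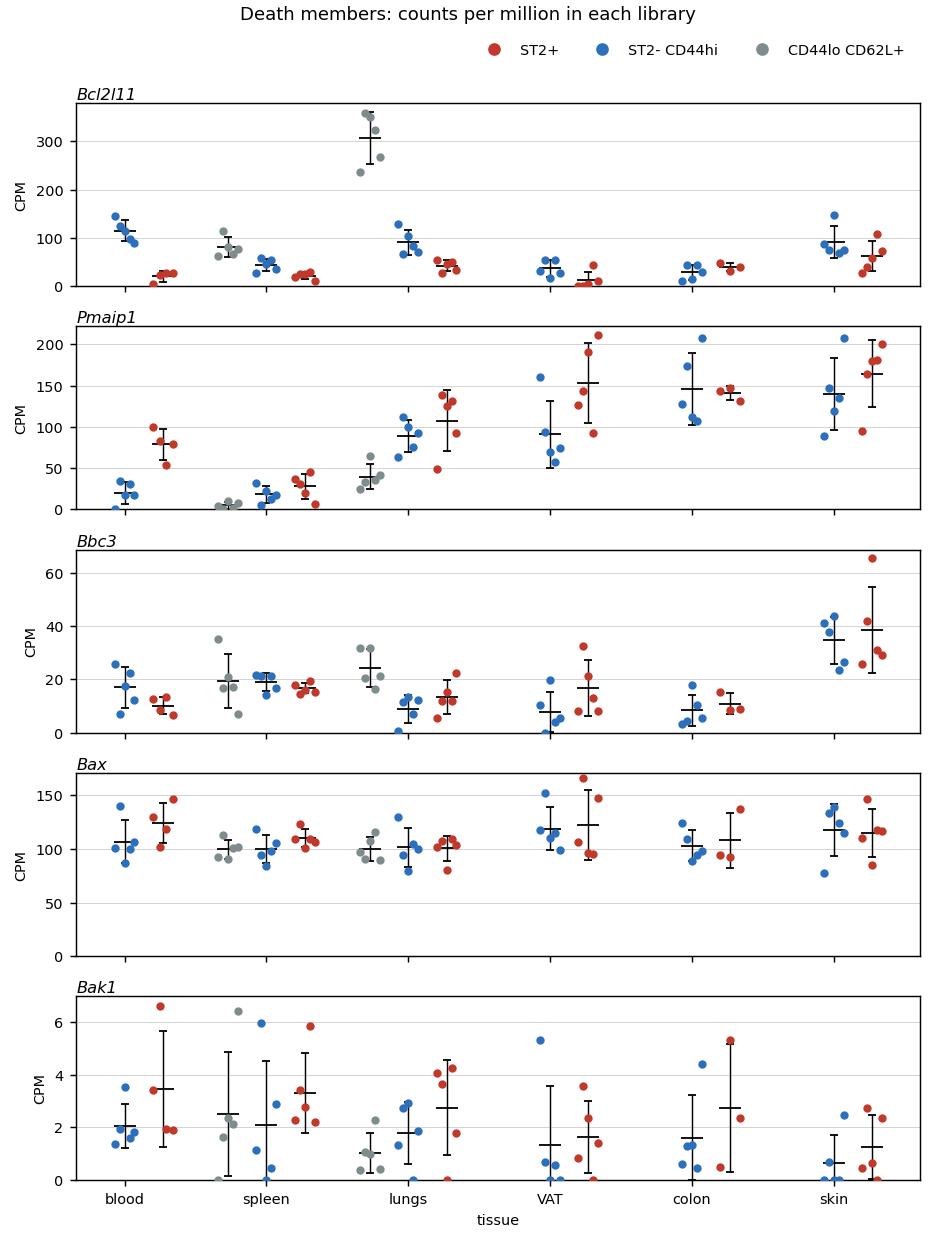
Levels of the 3 BH3-only members and the 2 effectors in CPM (vertical axes from 0) in each of the 67 libraries, drawn as for the survival members with bars at the mean ± SD. Bcl2l11 stands out in central Tregs of the lungs (236 to 359 CPM), Pmaip1 is lowest in central Tregs of the spleen (0.410 to 10.2 CPM), and the Bax groups overlap throughout.

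Whether ST2+ and ST2- CD44hi Tregs of a tissue differ was the main comparison of the study, and the most members were called in blood by edgeR, while voom called more in lungs. A gene was called when it changed at least 1.5-fold and its p in edgeR's quasi-likelihood test, adjusted over all 13179 tested genes (Benjamini-Hochberg), was 0.05 or lower, and differences are log2 fold changes with their standard error (SE). Where a call is said to be lost without a mouse, the value in parentheses is the adjusted p of the same test without all libraries of that mouse. In blood, 3 of the 10 members were called, where 4.07% of all tested genes were. Bcl2 was lower in ST2+ Tregs, at 175, 115, 183 and 144 CPM in mice 2 to 5 against 606 to 802 CPM in ST2- CD44hi Tregs, without overlap, and the difference of -2.24 (SE 0.31) was a 4.72-fold decrease with adjusted p = 1.31e-06 by edgeR. Bcl2l11 was at 3.99, 23.8, 26.8 and 26.5 CPM against 90.1 to 145 CPM and also did not overlap (-2.49, SE 0.53, adjusted p = 0.00178 by edgeR). Pmaip1 went up, at 100.2, 82.3, 53.6 and 78.9 CPM against 0 to 34.1 CPM (3.996-fold, SE 0.47 on the log2 scale, adjusted p = 0.00604 by edgeR). A survival gene and a death gene thus fell together in ST2+ Tregs of the blood while another death gene rose, each in 4 of 4 mice with both kept libraries. The blood ST2+ library of mouse 1, left out at 488666 counts, ran against this for 2 of the genes, with Bcl2 at 667 CPM and Pmaip1 at 0 (unscaled CPM). With all 70 libraries the calls of Bcl2 (-1.59, adjusted p = 0.00147 by edgeR) and Pmaip1 (1.73, adjusted p = 0.0348 by edgeR) held. Mcl1 was lower by 0.55 (SE 0.12) on the log2 scale with adjusted p = 0.00142 by edgeR, a 1.47-fold change under the fold minimum. Without mouse 2, whose ST2- CD44hi library was low in Cd44, the 3 calls held, with log2 fold changes of -2.27, -2.12 and 2.15. Mcl1 was also called without mouse 2 or without mouse 4 (adjusted p 0.00343 to 0.0120 by edgeR). The Pmaip1 call was lost without mouse 3 (adjusted p = 0.0693 by edgeR) and with voom.

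In VAT, 1 member was called, against 3.13% of all genes. Bcl2 was at 147, 81.3, 65.8, 197 and 81.9 CPM in ST2+ and at 180.0, 235, 222, 324 and 158 CPM in ST2- CD44hi Tregs of mice 1 to 5. The groups overlapped, yet ST2+ was the lower of the pair in 5 of 5 mice (-0.96, SE 0.28, adjusted p = 0.0406 by edgeR). The call was lost without mouse 2, 3 or 5, where the adjusted p by edgeR was 0.118 to 0.212. It was also lost with voom (-0.87, adjusted p = 0.145 by voom). In edgeR it was lost as well with a covariate for sorted cells (adjusted p = 0.0535), with all gene types (0.0524) and with all 70 libraries (0.112). Bcl2l11 was also lower in ST2+ Tregs in 5 of 5 mice (-1.62, SE 0.50) and missed the threshold at adjusted p = 0.0519 by edgeR, but passed it with the mouse as a block (-1.80, adjusted p = 0.0216 by edgeR). Myeloid transcripts moved with this comparison, with 8 of 10 markers present and a sum of 131 to 446 CPM in VAT ST2+ against 7 of 10 and 17.8 to 166 CPM in VAT ST2- CD44hi Tregs, and their part in the result was not tested.

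No member was called in lungs, spleen, colon or skin, where 0.751%, 0.349%, 0.0683% and 0.228% of all genes were called by edgeR. At an unadjusted p below 0.05, 5 members passed in lungs, 1 in spleen, 1 in colon and none in skin. Of all 13179 tested genes, 1319, 683, 655 and 1102 passed this cutoff in these tissues, in that order. In lungs, Bcl2 was at 189.5, 174, 168, 219 and 126 CPM in ST2+ and at 334, 295, 343, 382 and 349 CPM in ST2- CD44hi Tregs, without overlap (-0.96, adjusted p = 0.0871 by edgeR). Bcl2l1 (1.38, adjusted p = 0.0785 by edgeR) and Bcl2a1d (1.10, adjusted p = 0.0591 by edgeR) were higher in ST2+ Tregs in 5 of 5 mice, also without overlap, and missed the threshold. With the mouse as a block, Bcl2 (adjusted p = 0.0176) and Bcl2a1d (adjusted p = 0.0345) passed it in edgeR. With voom, the method of the study, 4 members passed in lungs, Bcl2, Bcl2a1d, Bcl2l1 and Bcl2l11 (adjusted p = 0.0238 for the last). Bcl2l1 also passed with DESeq2 and in edgeR without mouse 1 (adjusted p 0.0167 to 0.0176 over voom and these fits). Over all 13179 genes, voom called 349 in lungs and DESeq2 235. The main edgeR fit called 99, the fit with the mouse block 124 and the fit without mouse 1 83. In skin, Bcl2 was near its lowest in both populations.

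The difference of Bcl2 between ST2+ and ST2- CD44hi Tregs itself varied among tissues. In the test of the interaction of tissue and ST2, 1 member was called, Bcl2 (adjusted p = 0.00834 by edgeR), against 1.4% of all genes. Its log2 fold changes ran from -2.24 in blood to 0.39 in skin. The call was lost without mouse 2 (adjusted p = 0.185 by edgeR), without mouse 3 (0.161) and when the 3 shallow libraries were included. For Mcl1 the adjusted p was 0.157, and 0.0403 by edgeR with the mouse as a block.

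**Figure D4:**
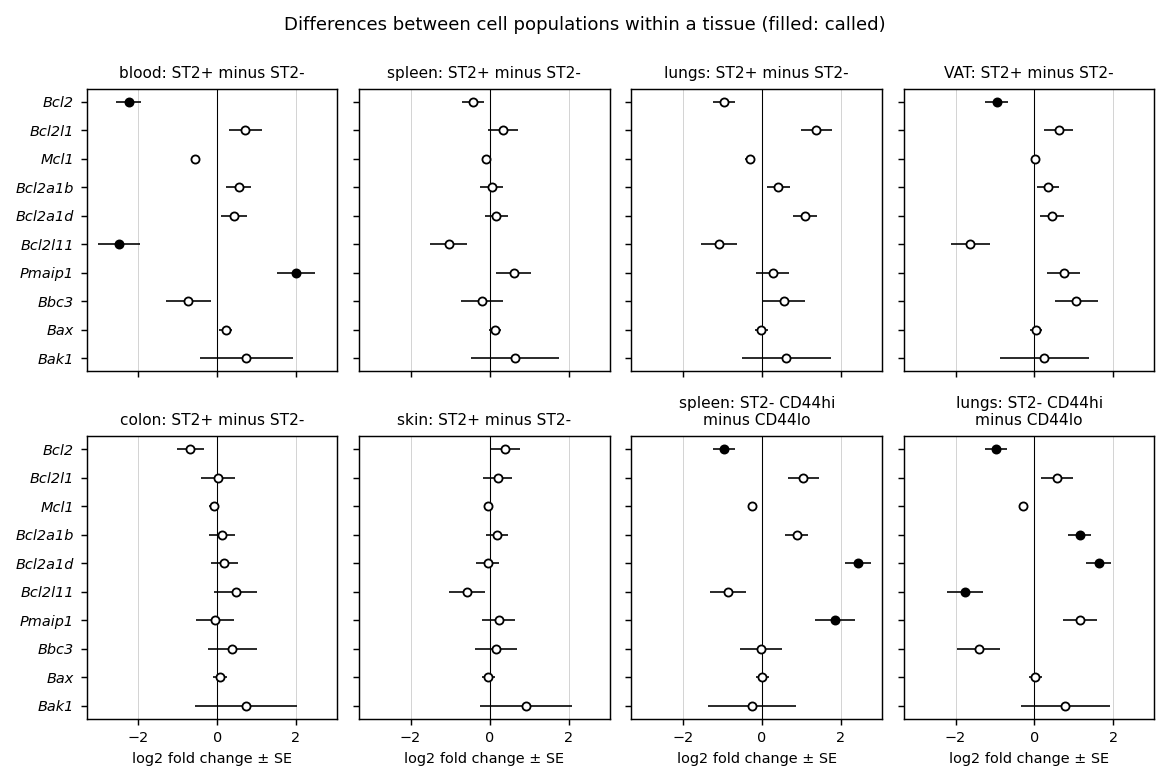
Log2 fold changes (horizontal axes, points with SE bars) of the 10 members between populations of the same tissue, in 6 comparisons of ST2+ with ST2- CD44hi and 2 of ST2- CD44hi with CD44lo CD62L+ Tregs. Filled points are called. Filled points for Bcl2 lie left of 0 in all 4 panels that have one, with values from -2.24 to -0.96.

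Effector and central Tregs were compared as ST2- CD44hi minus CD44lo CD62L+ Tregs in spleen and in lungs. In spleen, 3 members were called (4.98% of all genes) and in lungs 4 (5.57%). Bcl2 was lower in effector Tregs in both tissues, in 5 of 5 mice each and without overlap, by 0.96 on the log2 scale in spleen (SE 0.27, adjusted p = 0.0212 by edgeR) and by 0.97 in lungs (SE 0.28, adjusted p = 0.0201 by edgeR). These calls were near the threshold. In spleen the call was lost without mouse 1, 2, 3 or 5 (adjusted p by edgeR up to 0.0867), and in lungs without mouse 2, 3 or 5 (up to 0.134). Bcl2l1 was higher in effector Tregs of both tissues, by 0.56 to 1.05, and was not called. In spleen it passed with voom and in edgeR without mouse 1 (adjusted p 0.000202 to 0.00536 over these fits). In lungs it passed without mouse 1 (adjusted p = 0.0294 by edgeR).

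The A1 genes rose in effector Tregs. In spleen, Bcl2a1d was at 16.3, 18.8, 18.5, 20.3 and 15.1 CPM in ST2- CD44hi Tregs against the 1.96 to 5.50 CPM of central Tregs, a 5.38-fold difference (2.43, SE 0.32, adjusted p = 7.89e-08 by edgeR). In lungs it was at 19.3, 20.4, 10.5, 11.0 and 8.73 CPM against 2.10 to 7.40 CPM, 3.08-fold higher (1.62, SE 0.32, adjusted p = 0.000216 by edgeR). Neither pair of groups overlapped. Bcl2a1b was called in lungs (1.14, SE 0.30, adjusted p = 0.00836 by edgeR), except without mouse 2 (0.147) or mouse 3 (0.121). In spleen it missed the threshold (0.88, adjusted p = 0.0613 by edgeR) and passed it with the mouse as a block (0.90, adjusted p = 0.0421 by edgeR).

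Of the BH3-only genes, Pmaip1 was called in spleen and Bcl2l11 in lungs. Both had the same direction in the other tissue, where Pmaip1 was higher by 1.16 in lungs (adjusted p = 0.111 by edgeR) and Bcl2l11 lower by 0.87 in spleen (adjusted p = 0.370 by edgeR), and both passed there with voom. Whether the tissues differ in this was not tested. In spleen, Pmaip1 was 3.57-fold higher in effector Tregs, at 32.6, 5.13, 22.5, 13.1 and 17.3 CPM against 0.410 to 10.2 CPM (1.84, SE 0.51, adjusted p = 0.0156 by edgeR). The groups overlapped, and the call was lost without mouse 1, 2 or 4 (adjusted p by edgeR 0.0521 to 0.0928) and with voom. In lungs, Bcl2l11 was 3.39-fold lower in effector Tregs, at 128, 65.8, 104, 83.3 and 71.7 CPM against 236 to 359 CPM without overlap (-1.76, SE 0.46, adjusted p = 0.00947 by edgeR). That call was lost without mouse 3 (0.0634) or mouse 5 (0.0727). Bbc3 was lower by 1.42 in effector Tregs of the lungs and was not called by edgeR. It passed there with voom and with DESeq2 (adjusted p 0.0201 to 0.0291 over these fits).

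Central Tregs of lungs and spleen, compared directly, differed in these same 2 death genes, and 2 of 10 members were called against 3.28% of all genes. Pmaip1 was 7.78-fold higher in lungs (2.96, SE 0.51, adjusted p = 3.01e-05 by edgeR) and Bcl2l11 3.83-fold higher (1.94, SE 0.46, adjusted p = 0.00549 by edgeR), both in 5 of 5 mice and without overlap. Leaving out mouse 3 ended the Bcl2l11 call (adjusted p = 0.0721 by edgeR). None of the survival genes was called, and Bcl2 differed by -0.20. Of the 13 immediate early and stress genes, 5 were higher in lungs. Their sum was 4037 to 5444 CPM in central Tregs of the lungs and 1409 to 2764 CPM in those of the spleen. Lungs were digested with collagenase IV at a warm temperature and spleens were disrupted mechanically, so tissue and preparation cannot be told apart.

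To see how the family varied by tissue, each tissue was compared with spleen, in ST2+ and in ST2- CD44hi Tregs separately. The 5 comparisons of a population share the spleen libraries. Tested over the 6 tissues at once, 8 of the 10 members varied in ST2+ and 8 in ST2- CD44hi Tregs, all but Bax and Bak1, where 47.5% and 43.3% of all genes did, so the share of members is to be read against a high background. For Bax the adjusted p was 0.539 and 0.557 by edgeR. In ST2+ Tregs, the results of Bbc3 (adjusted p = 0.0202 by edgeR) and Bcl2a1b (0.00992) were lost without mouse 3, 4 or 5, with adjusted p of 0.0602 to 0.279, and that of Mcl1 (0.00342) without mouse 4 (0.0989). In ST2- CD44hi Tregs all 8 results held without any 1 mouse.

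Skin differed from spleen most. Among ST2- CD44hi Tregs, 4 members were called (30.9% of all genes) and among ST2+ Tregs 6 (29.1%). Bcl2 was 30.6-fold lower in skin ST2- CD44hi Tregs (-4.94, SE 0.35, adjusted p = 7.14e-18 by edgeR) and 17.6-fold lower in skin ST2+ Tregs (-4.14, SE 0.34, adjusted p = 1.72e-15 by edgeR). Bcl2l1 was 5.49-fold and 5.03-fold higher (2.46, SE 0.39, and 2.33, SE 0.39, adjusted p = 8.16e-07 and 2.19e-06 by edgeR). In each case the skin and spleen libraries did not overlap and the direction held in 5 of 5 mice. Markers of keratinocytes and fibroblasts rose with this comparison. Of 11 tested markers of parenchymal and blood cells, 4 were higher in skin ST2+ and 5 in skin ST2- CD44hi Tregs. These were the keratin genes Krt14 and Krt5 and the collagen genes Col1a1 and Col3a1 in both, and Scgb1a1 in ST2- CD44hi Tregs. Another 1 and 2 were lower, Pecam1 in both (-1.31 and -1.36) and Adipoq in ST2- CD44hi Tregs (-6.67). The markers of this list summed to 166 to 824 and 144 to 1236 CPM in skin against 210 to 349 and 215 to 260.0 CPM in spleen. Counts were found for 13 and 10 of 13 markers against 7 and 7. The part of these markers in the results of the members was not tested.

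Pmaip1 was 7.65-fold higher in ST2- CD44hi and 5.90-fold higher in ST2+ Tregs of the skin than of the spleen (2.93, SE 0.46, and 2.56, SE 0.45, adjusted p = 6.87e-07 and 7.04e-06 by edgeR). Bcl2a1d was higher by 1.33 and 1.11 (adjusted p = 0.000349 and 0.00289 by edgeR). In ST2+ Tregs, Bcl2l11 (1.52, adjusted p = 0.0111 by edgeR) and Bcl2a1b (0.72, adjusted p = 0.0468 by edgeR) were also called. The Bcl2l11 call was lost without mouse 5 (0.107), and the Bcl2a1b call without any 1 of the 5 mice (0.0740 to 0.165). In ST2- CD44hi Tregs, Bcl2l11 missed the threshold (1.05, adjusted p = 0.0684 by edgeR) and passed it with the mouse as a block (1.10, adjusted p = 0.0494 by edgeR), with voom and without mouse 2 or mouse 4.

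VAT ST2+ Tregs differed from spleen ST2+ Tregs in 5 members (11.3% of all genes). Bcl2 was 2.56-fold lower (-1.36, SE 0.28, adjusted p = 0.000355 by edgeR) and Pmaip1 5.48-fold higher (2.45, SE 0.45, adjusted p = 4.14e-05 by edgeR). Bcl2l1 was 2.31-fold higher (1.21, SE 0.38, adjusted p = 0.0221 by edgeR), as were Bcl2a1d (2.58-fold, adjusted p = 0.000635 by edgeR) and Bcl2a1b (1.80-fold, adjusted p = 0.0393 by edgeR). None of these 5 pairs of groups overlapped. The Bcl2l1 call was lost without mouse 2, 3, 4 or 5 (0.0527 to 0.110) and the Bcl2a1b call without any 1 of the mice (0.0511 to 0.178). In VAT ST2- CD44hi Tregs 2 members were called (5.96% of all genes), Pmaip1 (2.32, SE 0.45, adjusted p = 0.000222 by edgeR) and Bcl2a1d (1.10, SE 0.30, adjusted p = 0.0127 by edgeR), the latter lost without mouse 2, 3, 4 or 5 (0.0552 to 0.0696). Bcl2 was lower by 0.81 there (adjusted p = 0.0616 by edgeR), and passed the threshold with the mouse as a block (-0.84, adjusted p = 0.0163 by edgeR).

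In colon, Bcl2 and Pmaip1 were the called members in both populations, where 10.4% (ST2+) and 11.1% (ST2- CD44hi) of all genes were called. Bcl2 was lower by 1.55 in ST2+ (SE 0.34, adjusted p = 0.00142 by edgeR) and by 1.28 in ST2- CD44hi Tregs (SE 0.28, adjusted p = 0.000862 by edgeR). The ST2- CD44hi groups overlapped through the colon library of mouse 4 at 313 CPM, and the ST2+ call was lost without mouse 3 (0.0716). Pmaip1 was 5.06-fold higher in ST2+ (adjusted p = 0.000593 by edgeR) and 7.99-fold higher in ST2- CD44hi Tregs (adjusted p = 1.7e-06 by edgeR), with no overlap. Colon ST2+ libraries held the most myeloid transcripts, 929 to 1062 CPM over 8 of 10 markers against 2.92 to 13.6 CPM in spleen ST2+ Tregs, and their part in these results was not tested.

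In lungs 1 member was called in each population, Pmaip1, 3.85-fold higher in ST2+ (adjusted p = 0.00213 by edgeR, 4.91% of all genes called) and 4.87-fold higher in ST2- CD44hi Tregs (adjusted p = 0.000343 by edgeR, 4.13% of all genes called). The ST2+ call was lost without mouse 3 (0.0532). Bcl2 in lungs ST2+ Tregs was lower by 0.75 (adjusted p = 0.102 by edgeR) and passed the threshold with the mouse as a block (-0.74, adjusted p = 0.0449 by edgeR).

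Blood was the tissue where the 2 populations parted. In ST2- CD44hi Tregs 3 members were called (3.57% of all genes), with Bcl2 1.85-fold higher than in spleen (0.89, SE 0.27, adjusted p = 0.0476 by edgeR), Bcl2l1 2.55-fold lower (-1.35, SE 0.40, adjusted p = 0.0368 by edgeR) and Bcl2a1d 2.18-fold lower (-1.13, SE 0.31, adjusted p = 0.0190 by edgeR). Only the Bcl2l1 groups overlapped. Without mouse 2, whose blood library was low in Cd44, all 3 calls were lost, at adjusted p = 0.141, 0.167 and 0.142 by edgeR. Leaving out mouse 1, 3 or 5 also ended the Bcl2 call (0.116 to 0.170), leaving out mouse 3, 4 or 5 the Bcl2l1 call (0.0588 to 0.0827), and leaving out mouse 3 the Bcl2a1d call (0.177). Bcl2l11 was higher by 1.39 (adjusted p = 0.0724 by edgeR), or 1.44 with the mouse as a block (0.0445). In ST2+ Tregs, Pmaip1 was the 1 member called (4.22% of all genes), 2.83-fold higher in blood (SE 0.46 on the log2 scale, adjusted p = 0.0407 by edgeR). That call was lost with the mouse as a block (1.40, adjusted p = 0.0664 by edgeR) and without mouse 2, 3 or 5 (0.137 to 0.267). Bcl2 in blood ST2+ Tregs was lower than in spleen by 0.94 (adjusted p = 0.0542 by edgeR), and passed with the mouse as a block (0.0176).

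**Figure D5:**
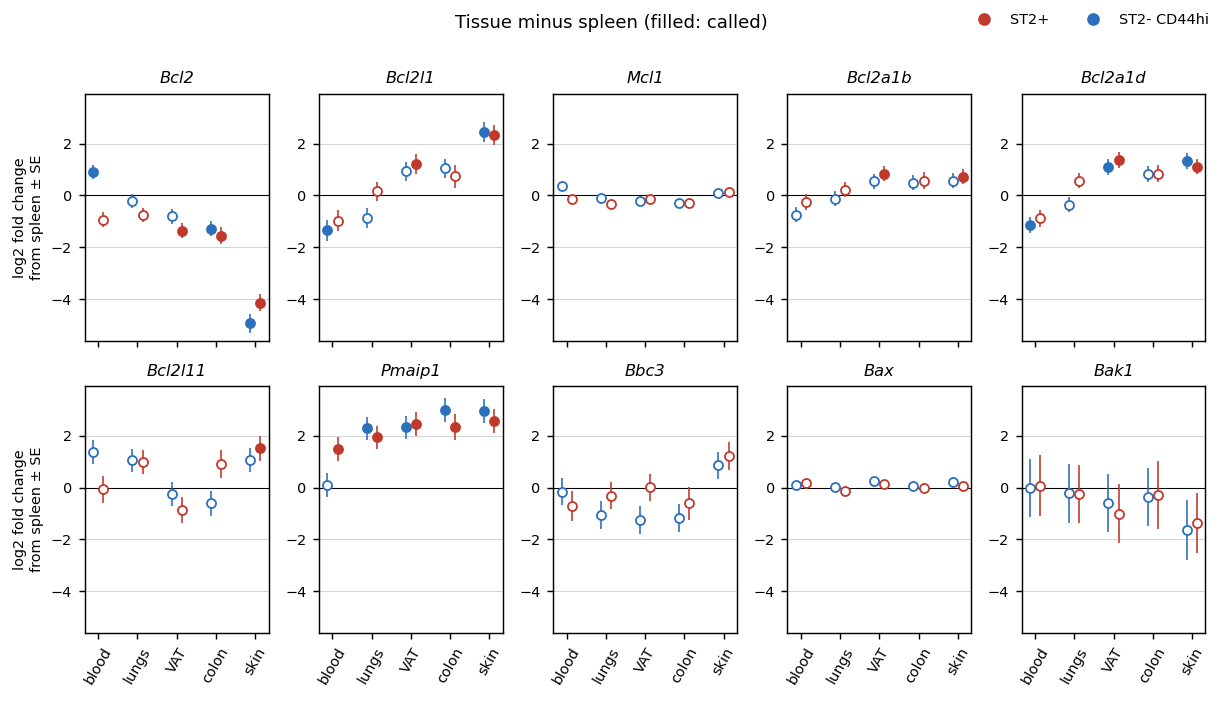
Log2 fold change from spleen (vertical axes, points with SE bars) of each member in blood, lungs, VAT, colon and skin, for ST2+ and ST2- CD44hi Tregs, with filled points for calls. Bcl2 falls to -4.94 and -4.14 in skin while Bcl2l1 rises to 2.46 and 2.33, and Pmaip1 is filled above 0 in every tissue except for ST2- CD44hi Tregs of the blood.

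Genes that respond to handling moved with part of these tissue differences. Of 13 immediate early and stress genes such as Fos, Junb and Atf3, 12 were higher in VAT ST2+, 11 in colon ST2+, 12 in skin ST2+ and 8 in lungs ST2+ Tregs than in spleen, and in ST2- CD44hi Tregs 9, 12, 11 and 8 were. In blood none was higher and 3 (ST2+) or 2 (ST2- CD44hi) were lower. Their summed level per library was 1287 to 3614 CPM in blood and spleen and 3067 to 11067 CPM in lungs, VAT, colon and skin, the tissues that were digested. Pmaip1 followed the same tissues, with the exception of blood ST2+ Tregs, in which it was higher than in spleen while the sum was 1915 to 2382 CPM. The preparations differed in further ways. Skin was digested for longer and with more collagenase IV than lungs, VAT and colon, and colon had further incubations before its digestion. Only spleen and lung cells were enriched for CD4+ T cells before the sort. Preparation, digestion included, and tissue cannot be told apart in this design. Within a tissue, both CD44hi populations came from the same digest. Between them, 4 of the 13 genes were higher in ST2+ Tregs of VAT, 2 in blood, 1 in lungs and 0 in spleen, colon and skin. Of all genes, 3.13%, 4.07% and 0.751% were called in VAT, blood and lungs. In VAT the sum was 7157 to 10624 CPM in ST2+ and 3067 to 6333 CPM in ST2- CD44hi Tregs. The sums also did not overlap in lungs and colon, where ST2+ Tregs were higher. The part of these genes in the results of the members was not tested.

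Of 14 other genes of the BCL2 family, 11 were tested, and 6 of these were called in at least 1 comparison of populations or with spleen. Bid, a BH3-only gene that links death receptors to mitochondria, was higher in blood ST2+ than ST2- CD44hi Tregs (0.81, adjusted p = 0.0346 by edgeR) and lower in VAT ST2+ Tregs (-0.92, adjusted p = 0.0114 by edgeR). Compared with spleen it was lower in 6 of 10 comparisons, by 0.83 to 1.44. Against spleen, up to 5 of the 11 were called, in skin ST2- CD44hi Tregs, where 30.9% of all genes were. No other gene of this list was called between populations, and the list's median log2 fold change lay between -0.35 and 0.28 there, against -0.01 to 0.03 for all tested genes. The medians of the 10 members lay between -0.01 and 0.34 in the same 8 comparisons.

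In the caspase cascade, which carries out cell death downstream of mitochondria, 12 of 12 genes were tested. Birc3, an inhibitor of apoptosis, was higher in VAT ST2+ than ST2- CD44hi Tregs (0.69, adjusted p = 0.000735 by edgeR). From spleen to other tissues Birc3 was higher in 7 of 10 comparisons, by 0.67 to 1.31. The medians of the list between populations were -0.10 to 0.20.

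Of 10 death receptor genes, Fasl, the ligand of the receptor Fas, was lower in ST2+ than ST2- CD44hi Tregs of blood (-2.31, adjusted p = 0.0212 by edgeR) and VAT (-2.05, adjusted p = 0.0189 by edgeR), and Fas was lower in VAT (-1.03, adjusted p = 0.0176 by edgeR). None was called in the other comparisons between populations. Tnfrsf10b, the TRAIL receptor, was higher than in spleen in 8 of 10 comparisons, by 2.16 to 4.96. The medians between populations were -0.10 to 0.18.

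Among 14 upstream regulators, Foxo1, a transcription factor that can induce Bcl2l11, was lower in ST2+ than ST2- CD44hi Tregs of blood (-0.61, adjusted p = 0.00555 by edgeR), lungs (-0.63, adjusted p = 0.00609 by edgeR) and colon (-0.80, adjusted p = 0.00995 by edgeR). It was also lower in effector than central Tregs of the spleen (-0.67, adjusted p = 0.000350 by edgeR). Il7r, a receptor subunit whose signals sustain Bcl2, was higher in ST2+ Tregs of blood (0.68), spleen (1.06) and VAT (0.89, adjusted p by edgeR 0.000502 to 0.0250). Il2ra, the high-affinity subunit of the IL-2 receptor, was lower in blood ST2+ (-0.92) and higher in VAT ST2+ Tregs (1.64), and lower in effector Tregs of the lungs (-0.81). In VAT ST2+ Tregs, Nfkb1 was also higher (0.87) and Il2rb lower (-0.72). From spleen to other tissues, Rel, an NF-kappaB subunit, was higher in 8 of 10 comparisons and lower in 1, blood ST2+, with values from -0.95 to 3.31. The medians of this list between populations lay between -0.27 and 0.35.

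Markers of other cell types had counts in many libraries. Summed myeloid markers were 0 to 116 CPM in central groups and 929 to 1062 CPM in colon ST2+ Tregs, with Csf1r at 0 in 10 of 14 groups and Csf3r in 11, while Lyz2 had counts in 53, Cd68 in 42, Fcer1g in 37 and Tyrobp in 36 of 67 libraries. Summed B cell markers ran from 356 to 3668 CPM among VAT ST2+ libraries and were 1376 to 3029 CPM in colon ST2+ Tregs. CD8 and NK cell markers summed to 5.48 to 248 CPM, with counts of Cd8a in 2 of 67 libraries, Klrb1c in 13, Klrk1 in 31 and Cd8b1 in all 67. Markers of parenchymal and blood cells summed to 118 to 2756 CPM, highest in a colon ST2- CD44hi library. How much these cells gave to the levels of the members was not tested.

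Genes whose 14 group means of log2 CPM were most like those of a member, by Pearson's r, were Dennd2d (0.98) and Evl (0.98) for Bcl2 and 2900026A02Rik (0.98) and Mapkapk3 (0.97) for Bcl2l1. For the A1 genes they were each other, Rapsn (0.96) for Bcl2a1b, and Hip1 (0.98) and Itpripl2 (0.97) for Bcl2a1d. Bcl2l11 was most like Zmym2 (0.94) and Rbm7 (0.93), and Pmaip1 most like Srgn (0.96) and Sod1 (0.96). Lower values were found for Mcl1 (Irgm2 and Tnnt2, 0.88 each), Bax (Ccnk 0.91, Capns1 0.85), Bbc3 (Bcat2 and Dmtf1, 0.87 each) and Bak1 (Gm5141 0.84, Cpt2 0.83). These likenesses rank 13179 genes over 14 points that share mice.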

How the data were processed

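Transcripts were measured in 14 groups of sorted mouse Tregs by SMART-Seq v4 and NexteraXT libraries sequenced as 58-base single reads. The authors aligned the reads with STAR to GRCm38 and an Ensembl annotation and counted them per gene with HTSeq 0.4.1, and the table they deposited holds raw counts, keyed by Ensembl gene IDs, for all 70 libraries. The sources used here do not give the counting mode or strand setting, so reads of a gene and an antisense partner cannot be told apart. Of the 53465 IDs, 53360 were found in the GENCODE M21 annotation of GRCm38, and 21942 of these were protein-coding. The 13179 of these that reached 1 CPM in 10% or more of the 67 libraries of over 1000000 counts were tested.

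Counts were scaled with TMM factors, which also scale every CPM given here, and edgeR 4.0.16 (R 4.3.3) fitted its quasi-likelihood model, with a mean for each of the 14 groups. Log2 CPM used a prior count of 2. The study used limma with voom and quality weights, which served as an alternative (limma 3.58.1), beside DESeq2 1.42.0, the mouse as a replicate block, median-of-ratios factors, other gene filters, all 70 libraries, a covariate for how many cells were sorted, and fits without each mouse in turn. Of these, only the edgeR and voom fits of the group means were run on simulated counts. The simulation changed genes in skin ST2+ libraries alone and held no mouse effect, and its outcome is not reported here. Medians, shares and figures were made in Python 3.11.15 with numpy 2.4.6, pandas 2.3.3 and matplotlib 3.10.9.

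The 10 members were taken as listed, and they, the gene lists and the tests were chosen with earlier results of these data known. All 10 members are named. Genes of the other lists are named where called between populations or, against spleen, in the most comparisons, as are the 2 tested genes most like each member over the 14 group means. Some genes of the lists are not reported here. All libraries of 1 mouse number come from the same animal. Deviations from the group means over 10129 genes were compared between the ST2+ and ST2- CD44hi libraries that 1 mouse gave from 1 tissue, and correlated with a mean r of 0.0784 (27 pairs, lowest -0.0023, 6 over 0.1), against -0.0190 between different mice (108 pairs). The mouse block therefore pairs libraries by animal. No 2 libraries of a group held identical counts (129 pairs). At the median depth of 2039002 counts, 1 count was worth 0.492 CPM, which limits genes near that level. Floors of 3 counts cover counting error only, since reads carried no molecular identifiers. Levels per kilobase divide CPM by the summed exon length of a gene. Promoter sequences are from RefSeq (GRCm38.p6) and coding sequences from the GENCODE M21 transcripts, of the build that the files use.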

Additional observations from a re-analysis of the deposited data

Results flagged for a closer look

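Single libraries stood apart in 12 of 130 groups of 4 or 5 libraries, where chance alone would single out about 6.5. In each of them the gap between the highest or lowest library and its nearest neighbour took up most of the range of the group on the log2 scale. Among survival genes these were Bcl2 in colon ST2- CD44hi Tregs of mouse 4 (313 CPM, the others 109 to 142), Bcl2l1 in colon ST2- CD44hi Tregs of mouse 1 (279.7 CPM, the others 106 to 133), Mcl1 in skin ST2- CD44hi Tregs of mouse 2 (609 CPM, the others 399 to 447), Bcl2a1b in lungs ST2+ Tregs of mouse 4 (31.1 CPM, the others 20.8 to 22.6) and Bcl2a1b in spleen central Tregs of mouse 1 (6.97 CPM, the others 10.8 to 12.3). In blood ST2- CD44hi Tregs, mouse 1 held 0 CPM of Bcl2l1 (the others 18.7 to 50.8) and 0 CPM of Pmaip1 (the others 17.0 to 34.1).

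Among the other death genes, Bcl2l11 in blood ST2+ Tregs of mouse 2 was at 3.99 CPM (the others 23.8 to 26.8), Bbc3 in lungs ST2- CD44hi Tregs of mouse 1 at 0.666 CPM (the others 7.12 to 13.4) and Pmaip1 in skin ST2+ Tregs of mouse 1 at 95.4 CPM (the others 164 to 201). Bax in lungs ST2+ Tregs of mouse 3 was at 80.5 CPM (the others 101 to 109.7) and Bak1 in VAT ST2- CD44hi Tregs of mouse 1 at 5.32 CPM (the others 0 to 0.683, at or near a single count). The difference of Bcl2 between ST2+ and ST2- CD44hi Tregs varied among tissues, with adjusted p = 0.00834 for the interaction by edgeR's quasi-likelihood test.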

How the results depend on the processing

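Of 57 calls of a member in a comparison, 34 held under all 14 alternatives, 23 were lost under at least 1 and 0 changed direction. Members called between ST2+ and ST2- CD44hi Tregs numbered 4 (main), 8 with DESeq2, 7 with the mouse as a replicate block, and 2 to 6 when a mouse was left out. Between effector and central Tregs they numbered 7, 11 with voom and quality weights, 4 with all 70 libraries, and 3 to 7 when a mouse was left out. Against spleen they numbered 27, and 17 to 26 when a mouse was left out, the lowest without mouse 3. In central Tregs of lungs and spleen they numbered 2 (1 to 2), over the 6 tissues in ST2+ Tregs 8 (5 to 8), and for the interaction 1, 3 with voom and quality weights, 3 with DESeq2, 2 with the mouse block, 0 with all 70 libraries and 0 to 2 without a mouse. Calls over all genes moved too. Between ST2+ and ST2- CD44hi Tregs they numbered 9 to 537 by tissue (main). With DESeq2 they numbered 30 to 900 and with the mouse block 10 to 590. Between effector and central Tregs they numbered 656 in spleen and 734 in lungs, with 1530 and 1231 by voom. With all 70 libraries these were 566 and 568. For the interaction they numbered 185, 864 with voom, 477 with DESeq2, 247 with the mouse block and 114 with all 70 libraries. The mouse block gained the calls named in the text and lost 1, Pmaip1 between blood and spleen ST2+ Tregs, and it changed no other call. The causes of these changes were not tested. Leaving out a mouse removes its values and also lowers the number of libraries, and the 2 cannot be told apart here. At the depth of these libraries Bak1 was too low to compare.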
